A study of Mus musculus with 18 samples.

Results

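The measurement described here is a difference of differences. For each gene, the change in RNA level between the small intestinal lamina propria (LP) and the intestinal lymph node (LN) was estimated in CD103+ dendritic cells (DCs) and again in CD11b+ DCs, and the change of the CD11b+ DCs was subtracted from that of the CD103+ DCs. The libraries were chosen by their labels alone, as all 3 replicates of LP CD103+, LN CD103+, LP CD11b+ and LN CD11b+ DCs, which makes 12 of the 18 RNA-seq libraries of the series. The genes were the 17074 that passed a filter on low counts, of 54232 listed. Both subsets were single-positive, so that CD103+ DCs were sorted as lacking CD11b and the reverse. The remaining 6 libraries, of DCs that carried both markers, entered the same fit and are given beside some results.

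All 12 libraries came from mice of strain C57BL/6J with the genotype CD11a KO. CD11a is the alpha chain of the adhesion receptor LFA-1 and is encoded by Itgal. Since the groups share the knockout and no wild-type DCs were compared, none of the differences below measures an effect of CD11a. The labels name no treatment or infection for any one of these libraries, and the sources used here state neither the ages of the mice, nor how many mice stand behind a library, nor the exact sort gate of the knockout DCs. For lamina propria DCs of the same study, the labels describe a gate on MHC class II-high CD11c+ cells without CD64, a macrophage marker. Nothing in the labels says whether replicates came from separate mice, so the p-values measure the spread between these libraries, which may in part be technical.

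DCs take up antigen in the gut wall, move through lymph to the draining lymph node and there present antigen to T cells. On the way they mature, which raises costimulatory molecules and the machinery of movement and stops the synthesis of new MHC class II. CD103+ CD11b- DCs belong to the type 1 lineage (cDC1), which depends on the transcription factors IRF8 and BATF3, senses double-stranded RNA through TLR3 and presents antigen of other cells to CD8+ T cells. CD11b+ CD103- DCs are mostly type 2 DCs (cDC2), which depend on IRF4 and prime CD4+ T cells, and in the gut wall they are the fraction hardest to part from macrophages. A lymph node holds DCs that arrived from tissue and others that live there.

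The 12 libraries held between 23999555 and 46901985 counted reads. Levels are given in CPM, the reads of a gene scaled to library size, with library sizes normalised by TMM, and levels are compared only within a gene. Within each tissue the RNA of the sorted markers followed the labels. Across tissues Itgae did not, since the LN CD103+ libraries lay below the LP CD11b+ libraries. Itgae, which encodes CD103, was at 1238 to 1440 CPM in LP CD103+ DCs against 92.1 to 292 in LP CD11b+ DCs, and at 27 to 40 against 5.57 to 6.66 in the LN. Itgam, which encodes CD11b, was at 55.3 to 68.1 CPM in LP CD11b+ and 13.8 to 25.7 CPM in LN CD11b+ DCs, and did not exceed 1.26 CPM in any CD103+ library. Itgal RNA was still present at 6.45 to 12.7 CPM in LN CD103+ DCs and at 18.1 to 26.6 CPM in the other 3 groups, and with no wild-type library this level has no reference.

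Markers of other cells differed between the groups and belong beside every count below. Summed over 12 T cell genes, the level was 7.38 to 13.2 CPM in LP CD103+ and 15.5 to 39.9 CPM in LP CD11b+ DCs, against 426 to 722 CPM in LN CD103+ and 330 to 616 CPM in LN CD11b+ DCs. The 10 macrophage genes summed to 1260 to 3120 CPM in LP CD11b+, 676 to 990 CPM in LN CD11b+, 74.1 to 118 CPM in LP CD103+ and 35.7 to 41 CPM in LN CD103+ DCs, and among them Fcgr1, which encodes CD64, was at 0 in all 3 LN CD103+ libraries. The 11 epithelial genes summed to 235 to 615 CPM in LP CD11b+ DCs, against 69.5 to 121 CPM in LP CD103+ and 28.6 to 50 CPM in the LN groups of both subsets, and to 580 to 863 CPM in LP double-positive DCs. The 9 B cell genes summed to 125 to 178 CPM in LN CD11b+ and 42.6 to 50.9 CPM in LP CD11b+ DCs. They summed to 39.9 to 54.2 CPM in LN CD103+ and 14.5 to 20.5 CPM in LP CD103+ DCs. In bulk RNA, fewer cells of a type and less RNA per cell cannot be told apart, and the part of other cells in the results was not tested. All LP libraries expressed the Y-linked gene Ddx3y with almost no Xist. The 3 LN CD103+ libraries and 2 of the 3 LN CD11b+ libraries expressed Xist with almost no Ddx3y, and the third LN CD11b+ library expressed both. Sex and tissue therefore cannot be told apart in CD103+ DCs, and they largely coincide in CD11b+ DCs.

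The tissue effect differed between the subsets for 3154 of the 17074 genes tested, or 18.5%, at an adjusted p under 0.01 and a difference of more than 1 on the log2 scale (quasi-likelihood test of edgeR, Benjamini-Hochberg adjustment). The difference was above 0, that is higher in CD103+ DCs, for 1583 genes (9.27%) and below 0 for 1571 (9.2%). This even split depends on the normalisation. Without TMM scaling, on total counts, the median difference of all genes fell from 0.01 to -0.35 and the share above 0 among called genes from 50.2% to 29.2%. The tissue effects themselves were unequal in extent. In CD103+ DCs 19.8% of genes rose in the LN and 15.1% fell, and in CD11b+ DCs 10.3% rose and 4.93% fell.

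Of the 3154 genes, 89 moved in opposite directions, past the same limits in both subsets. A further 500 moved the same way by different amounts. The largest class, with 2322 genes, passed the limits of the tissue effect in 1 subset only, and in 2121 of these that subset was CD103+ DCs (1008 rose and 1113 fell in the LN) against 201 in CD11b+ DCs (109 rose and 92 fell). A gene said below to move in 1 subset alone passed the limits there and missed them in the other subset, where it may still have moved. The last 243 genes passed the limits in neither subset. Opposite movement is thus 2.82% of the genes called. Where only the sign of the 2 fitted tissue effects is read, 1124 of the 3154 had opposite signs, and 228 of them passed an adjusted p under 0.01 in both subsets, with no limit on size, against 933 such genes with the same sign.

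**Figure D1:**
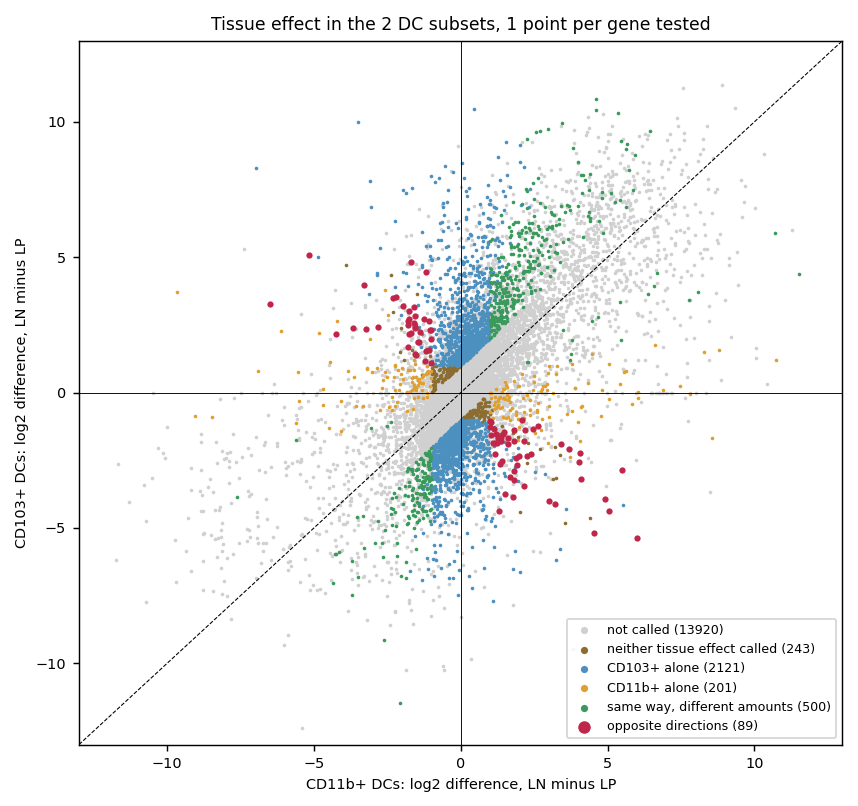
Log2 difference between LN and LP in CD11b+ DCs (horizontal) and CD103+ DCs (vertical), with 1 point for each of the 17074 genes and colours for the classes. The dashed line marks equal tissue effects. The 89 genes that moved in opposite directions lie in the upper left and lower right. Most coloured points lie along the vertical axis, where CD103+ DCs alone passed the limits.

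The 89 genes of opposite direction split into 38 that rose in LN CD103+ and fell in LN CD11b+ DCs and 51 that did the reverse. With no limit on size the split turned to 146 against 109. In 37 of the 38 and in all 51, the LP and LN libraries did not overlap in either subset. These genes were called on the same contrasts, and the share of all genes tested without overlap was not counted. The counts therefore describe the class and are no further test of it.

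The 51 genes, of 17074 tested, that fell in CD103+ DCs and rose in CD11b+ DCs included 5 of the 16 genes of the cDC1 list. That list was chosen with earlier results of these data known, so the count is no test. Xcr1, the chemokine receptor by which cDC1 find CD8+ T cells, was at 1410, 1399 and 1391 CPM in the 3 LP CD103+ libraries and at 95.2, 103 and 94.8 CPM in the LN CD103+ libraries. In CD11b+ DCs its level was 15.8, 12.8 and 11.8 CPM in the LP and 44.4, 45.4 and 49 CPM in the LN. The fall in CD103+ DCs was thus 3.84 on the log2 scale and the rise in CD11b+ DCs 1.78, a difference of -5.62 (SE 0.21, adjusted p = 2.89e-11). The subsets were 6.7 apart on the log2 scale in the LP and 1.08 apart in the LN. Rab7b, a small GTPase of the endosome, followed the same course, from 640, 773 and 669 CPM to 33.6, 33.1 and 33.4 CPM in CD103+ DCs and from 17.2, 19.6 and 24.5 CPM to 42.6, 51.4 and 57 CPM in CD11b+ DCs. Its order was turned in the LN, where all 3 CD11b+ libraries were above the CD103+ libraries.

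Irf8, the transcription factor that cDC1 require, had the highest level of the class. It fell from 4441, 4969 and 4540 CPM in LP CD103+ to 1635, 1656 and 1554 CPM in LN CD103+ DCs and rose from 147, 148 and 158 CPM to 381, 416 and 419 CPM in CD11b+ DCs, and the groups did not overlap. The difference of the tissue effects was -2.95 (SE 0.13, adjusted p = 8.92e-11), and the LN CD103+ libraries stayed above the LN CD11b+ libraries by 1.99 on the log2 scale. Cadm1, an adhesion molecule of cDC1, fell from 504 to 535 CPM to 98.4 to 107 CPM in CD103+ DCs and rose from 4.65 to 8.94 CPM to 19.1 to 31.8 CPM in CD11b+ DCs. Snx22, a sorting nexin, fell from 256 to 324 CPM to 28.2 to 36.2 CPM and rose from 6.48 to 9.59 CPM to 23.3 to 25.4 CPM. These 5 genes are the members of the cDC1 list in this class.

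Cxcr3, the receptor for the interferon-induced chemokines CXCL9 and CXCL10, had a large crossing. Its LP CD103+ libraries were at 122, 149 and 112 CPM and the LN CD103+ libraries at 22.7, 24.9 and 16.7 CPM, while CD11b+ DCs went from 3.88, 2.38 and 3.03 CPM to 43.4, 65.7 and 42 CPM. The subset with the higher level therefore changed from CD103+ in the LP (5.36) to CD11b+ in the LN (-1.23), and the interaction was -6.59 (SE 0.32, adjusted p = 3.11e-10). T cells also express Cxcr3, and their summed markers were high in both LN groups. Nrg2, a neuregulin growth factor, went from 11.6 to 16.2 CPM to 2.4 to 4.19 CPM in CD103+ DCs and from 2.05 to 5.05 CPM to 35 to 61.7 CPM in CD11b+ DCs. Fzd1, a Wnt receptor, fell from 65.5 to 74.6 CPM to 4.34 to 8.79 CPM in CD103+ DCs and rose from 0.442 to 1.04 CPM to 3.26 to 3.53 CPM in CD11b+ DCs. Itm2a, a membrane protein known from developing T cells, fell from 30.7 to 55 CPM to 9.96 to 14.4 CPM and rose from 0.727 to 0.842 CPM to 5.99 to 9.9 CPM.

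The largest difference among the named genes of this group was that of Cyp4f37, a cytochrome P450, but CD103+ DCs hardly expressed it. Its CD103+ libraries lay at 0.204 to 0.538 CPM in the LP and 0 to 0.0877 CPM in the LN, and the CD11b+ libraries at 0.826, 0.33 and 1.49 CPM in the LP and 46.6, 25.2 and 48.2 CPM in the LN. Its interaction of -8.34 (SE 0.95) joins tissue effects of 5.49 in CD11b+ and -2.85 in CD103+ DCs. Only its opposite direction rests on the fall between very low levels in CD103+ DCs. H2-M5, a non-classical MHC class I gene, fell from 8.73 to 12.9 CPM to 0.295 to 0.871 CPM in CD103+ DCs and rose from 0.0359 to 0.221 CPM to 0.699 to 1.71 CPM in CD11b+ DCs. Both genes have close relatives in the genome, and the sources used here do not say how reads that match several genes were counted.

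Of the 38 genes that rose in CD103+ DCs and fell in CD11b+ DCs, the 8 with the largest interaction by the rule for named genes are described here. F11r, which encodes the tight junction molecule JAM-A, went from 10.8, 7.23 and 14.4 CPM in LP CD103+ to 233, 233 and 240 CPM in LN CD103+ DCs, a rise of 4.46 on the log2 scale. In CD11b+ DCs it went from 148, 110 and 237 CPM to 58.8, 72.2 and 88.2 CPM, and the interaction was 5.64 (SE 0.35, adjusted p = 3.85e-09). Tnip3, an inhibitor of NF-kB signalling, rose from 3.43, 4.39 and 2.9 CPM to 37.8, 34.8 and 26.5 CPM in CD103+ DCs and fell from 138, 89 and 88.3 CPM to 26, 29.4 and 25.2 CPM in CD11b+ DCs, so that the LN groups came close to each other (0.3, adjusted p = 0.15). Bst1, which encodes the cell surface enzyme CD157, crossed. It rose from 1.07 to 1.42 CPM to 11.6 to 17.3 CPM in CD103+ DCs and fell from 9.55 to 19.9 CPM to 1.95 to 3.35 CPM in CD11b+ DCs.

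Klf5, a transcription factor of epithelial cells, rose from 1.95, 1.74 and 2.33 CPM to 10.4, 9.66 and 11.7 CPM in CD103+ DCs. The 3 LP CD11b+ libraries were far apart, at 1.19, 3.22 and 13.4 CPM, and all stood above the LN CD11b+ libraries at 0.426, 0.357 and 0.599 CPM. In the same order of libraries Krt8, a keratin, was at 7.36, 25.5 and 66.8 CPM and the epithelial adhesion molecule Epcam at 164, 158 and 307 CPM, so that both were highest in the library with the most Klf5 while only Krt8 followed Klf5 in the other two. The part of epithelial RNA in these levels was not tested. Fam189a2 likewise rose between low levels in CD103+ DCs, from 0.122 to 0.43 CPM to 0.789 to 1.58 CPM, and fell from 13.9, 11.1 and 40.5 CPM to 0.909 to 1.33 CPM in CD11b+ DCs.

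Mrc1 and Stab1 encode scavenger receptors of macrophages. Mrc1 was at 32.7 to 50.1 CPM in LP CD11b+ and 3.56 to 5.3 CPM in LN CD11b+ DCs, while in CD103+ DCs it rose from 0.15 to 0.672 CPM to 2.07 to 2.63 CPM. Stab1 was at 18.2 to 26.6 CPM in LP CD11b+ and 2.06 to 3.96 CPM in LN CD11b+ DCs, and rose from 0.107 to 0.326 CPM to 0.745 to 1.66 CPM in CD103+ DCs. In both genes the opposite direction rests on a rise within CD103+ DCs to levels that remained below those of either CD11b+ group. C1qb, a complement gene that marks tissue macrophages, was at 217 to 522 CPM in LP CD11b+ and 56.3 to 88.9 CPM in LN CD11b+ DCs, and at 3.42 to 9.83 CPM and 2.02 to 3.15 CPM in LP and LN CD103+ DCs. H2-Q10, a secreted MHC class I molecule with near-identical relatives, rose from 0.107 to 0.49 CPM to 2.91 to 4.15 CPM in CD103+ DCs and fell from 7.1 to 24.9 CPM to 2.68 to 3.38 CPM in CD11b+ DCs.

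**Figure D2:**
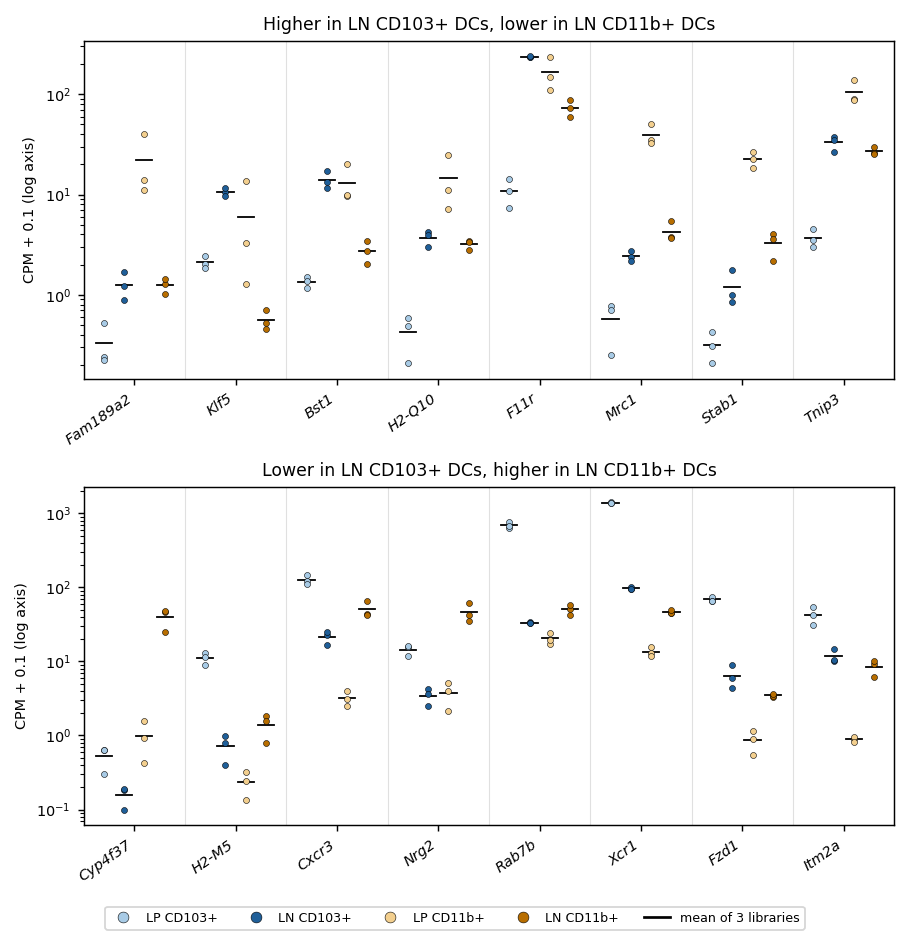
Level (CPM plus 0.1, log axis) in each of the 12 libraries for the 16 named genes that moved in opposite directions, with the mean of 3 libraries as a bar. In the upper panel the dark blue points (LN CD103+) lie above the light blue (LP CD103+) and the dark orange (LN CD11b+) below the light orange (LP CD11b+), and in the lower panel both orders are turned.

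The distance between the subsets in each tissue was then compared by class. For each gene, the difference in the LN equals that in the LP plus the interaction. The classes were called on the interaction, so these values describe them and are no test. For the 38 genes that rose in CD103+ DCs, the median size of the difference between the subsets was 4.15 on the log2 scale in the LP and 1.43 in the LN, and 30 of the 38 differed less in the LN. For the 51 genes of the reverse group the medians were 2.09 and 2.07, and 28 differed less in the LN. Over all 3154 called genes the median rose from 0.69 in the LP to 1.4 in the LN, and 1060 differed less in the LN. Over all genes tested, 15.7% differed between the subsets past the limits in the LP and 25.9% in the LN, and the medians were 0.45 and 0.75. Of the 3154 genes, 622 differed between the subsets in the LP only, 1601 in the LN only, 292 in both tissues with the same subset higher and 170 in both with the other subset higher.

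**Figure D3:**
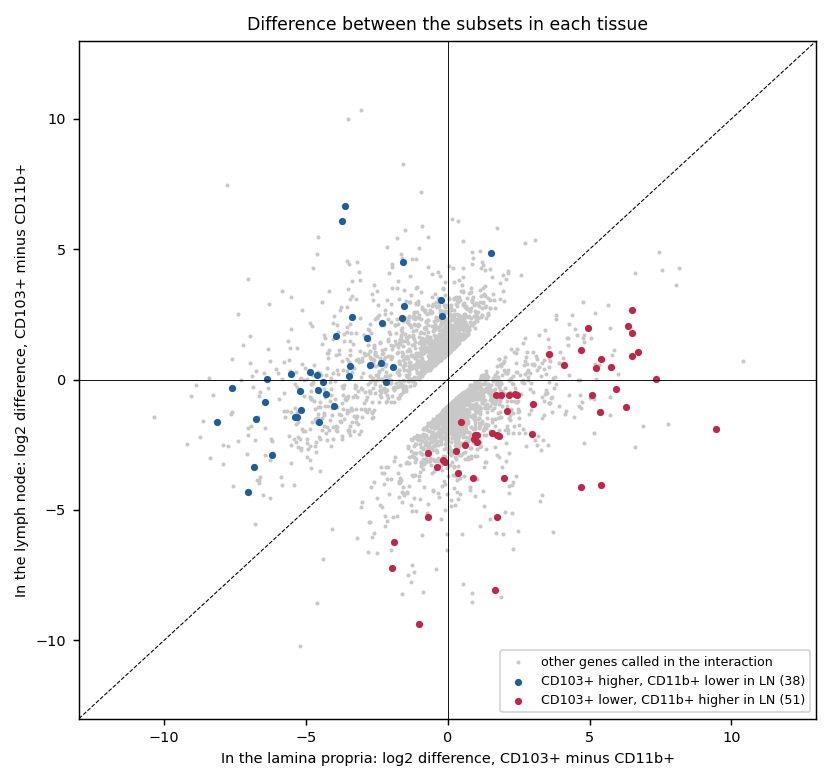
Log2 difference between CD103+ and CD11b+ DCs in the LP (horizontal) and in the LN (vertical) for the genes whose tissue effect differed, with the 38 and 51 genes of opposite direction in blue and red. The blue points have a median absolute difference of 4.15 on the LP axis and of 1.43 on the LN axis, and the grey points spread further along the LN axis than along the LP axis. The empty band about the dashed line comes from the limit on the interaction.

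Of the 500 genes that moved the same way, CD103+ DCs moved further in 478, with 319 higher and 159 lower in the LN, and CD11b+ DCs moved further in 22, with 17 higher and 5 lower. Il7, a survival factor for lymphocytes, rose from 0.0215 to 0.122 CPM to 13.3 to 24.7 CPM in CD103+ DCs and from 0.61 to 2.31 CPM to 6.09 to 10.5 CPM in CD11b+ DCs, an interaction of 5.32 (SE 0.69, adjusted p = 1.14e-05). Ndnf and Colq were absent or nearly so in LP CD103+ DCs, at 0 to 0.0816 and 0 to 0.0816 CPM, and reached 15.2 to 17.2 and 19.2 to 22.2 CPM in LN CD103+ DCs. In CD11b+ DCs Ndnf went from 2.08 to 3.41 CPM to 9.25 to 15.9 CPM and Colq from 1.06 to 2.91 CPM to 11.3 to 13.2 CPM, so the LN levels of both subsets were close and the LP levels were not. Sh2d4a, an adaptor protein, had no read in the 3 LP CD103+ libraries and 1.69 to 6.22 CPM in the LN CD103+ libraries. Against a floor of 3 counts over the group, that is at least 145-fold higher. Without LP CD103+ replicate 2, Sh2d4a no longer passed (6.45, adjusted p = 0.0158).

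Among the genes that fell in both subsets and further in CD103+ DCs, Cysltr1, a receptor for cysteinyl leukotrienes, started from like levels. It was at 118, 116 and 111 CPM in LP CD103+ and 134, 135 and 129 CPM in LP CD11b+ DCs, and at 2.24, 1.35 and 1.62 CPM and 30, 30.5 and 27.5 CPM in the LN, an interaction of -3.86 (SE 0.21, adjusted p = 9.02e-10). Mical2, an enzyme that disassembles actin filaments, fell from 37.6 to 51.7 CPM to 0.211 to 0.57 CPM in CD103+ DCs and from 7.22 to 14.5 CPM to 1.92 to 3.9 CPM in CD11b+ DCs. Fzd7, a Wnt receptor, fell from 32.5 to 40.1 CPM to 0.175 to 1.29 CPM and from 10.1 to 12.9 CPM to 2.89 to 5.79 CPM. Serpinb2, a protease inhibitor, was at 10.5 to 15.2 CPM in LP CD103+ DCs and had no read in the LN CD103+ libraries, at least 306-fold lower against the same floor, and fell from 4.91 to 10.4 CPM to 1.1 to 1.92 CPM in CD11b+ DCs.

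The 17 genes that rose in both subsets and further in CD11b+ DCs included genes of other cells. Marco, a scavenger receptor of lymph node macrophages, went from at most 0.0316 CPM in LP CD11b+ to 38.7, 44.3 and 56.3 CPM in LN CD11b+ DCs and to 0.996 to 1.94 CPM in LN CD103+ DCs. Ncr1, the natural killer cell receptor NKp46, reached 73.2, 118 and 75.1 CPM in LN CD11b+ against 2.19 to 2.74 CPM in LN CD103+ DCs, and Xcl1, the ligand of XCR1 that natural killer and T cells secrete, reached 17.6 to 34.9 CPM against 11.7 to 19.9 CPM. Over 10 natural killer cell genes, a list added after Ncr1 was seen, the sum was 422 to 691 CPM in LN CD11b+, 227 to 384 CPM in LN CD103+, 126 to 222 CPM in LP CD11b+ and 161 to 176 CPM in LP CD103+ DCs, with Eomes at 0 in LP CD11b+ DCs. Of these 10 genes 2 were called in the interaction, both below 0, and 1 of them, Klrb1c, lost its call on leaving out any 1 of 5 libraries (adjusted p up to 0.0539). Ccr1, an inflammatory chemokine receptor, led the 5 genes that fell further in CD11b+ DCs, from 471, 357 and 523 CPM to 12.2, 6.91 and 8.59 CPM, and went from 5.26 to 6.64 CPM to 0.657 to 2.74 CPM in CD103+ DCs. Spint1, a protease inhibitor of epithelia that these DCs expressed at a high level, was at 647 to 688 CPM in LP CD103+ and 632 to 679 CPM in LP CD11b+ DCs, and fell to 279 to 283 CPM and 96.9 to 133 CPM. Epcam and Fabp2, which are on the epithelial list, belong to the same 5. Fabp1, also on that list, moved in opposite directions. It rose from 2.45 to 5.05 CPM to 6.23 to 15 CPM in CD11b+ DCs. In CD103+ DCs it fell from 7.18 to 7.75 CPM to 1.91 to 2.28 CPM. The call of Fabp2 was lost on leaving out any 1 of 10 libraries (3.16 to 4.5, adjusted p up to 0.032), and Spint1 fell short of the size limit on total counts (0.91).

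Among genes that moved in CD103+ DCs alone, Tlr3, the receptor for double-stranded RNA, had the interaction furthest below 0 among the named genes of this class. It was at 971, 974 and 930 CPM in LP CD103+ and 9.08, 10.3 and 6.58 CPM in LN CD103+ DCs, and at 18.4, 16.2 and 20.3 CPM and 21.8, 20.2 and 24.6 CPM in LP and LN CD11b+ DCs. The interaction of -7.07 (SE 0.2, adjusted p = 1.27e-12) left LN CD103+ DCs below LN CD11b+ DCs in all 3 libraries. Slc22a4, a carrier of ergothioneine, had the interaction furthest above 0 among the named genes of this class (7.83). It went from 0.0408 to 0.424 CPM to 45.6 to 51.5 CPM in CD103+ DCs, where CD11b+ DCs lay at 5.34 to 8.24 CPM in the LP and 6.62 to 9.19 CPM in the LN. Ido2, a relative of the tryptophan-degrading enzyme IDO1, went from 0 to 0.0408 CPM to 8.85 to 10.9 CPM in CD103+ DCs and was at 0.0359 to 1.04 and 0.609 to 1.92 CPM in CD11b+ DCs. Ndrg4 and Pbld1 had the same form, with 29.2 to 33.4 and 11 to 13.9 CPM in LN CD103+ DCs and at most 8.56 and 3.06 CPM in the other 3 groups. LN double-positive DCs had levels as high, with 38.5 to 51.6 and 10.5 to 13.2 CPM. Cd300e, an activating receptor of myeloid cells, Rhpn1 and Sept3 fell in CD103+ DCs alone, to at most 0.132, 0.38 and 3.29 CPM in that order.

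Among the 201 genes that moved in CD11b+ DCs alone, F2r, the thrombin receptor PAR1, rose from 2.98, 1.57 and 1.83 CPM to 104, 146 and 111 CPM, while CD103+ DCs were at 8.19 to 10.7 CPM in the LP and 3.55 to 10.4 CPM in the LN. The interaction was -6.22 (SE 0.59, adjusted p = 3.35e-07). Lif, a cytokine of the interleukin-6 family, rose from 0.179 to 0.411 CPM to 13.1 to 25 CPM and lay at 2.37 to 4.46 and 1.23 to 4.98 CPM in CD103+ DCs. Scn3a, a sodium channel subunit, rose from 0 to 0.0632 CPM to 9.1 to 15.4 CPM and Frmd5 from 0.293 to 1.11 CPM to 9.87 to 13.1 CPM. The interaction of Scn3a rests on 1 library, since without LP CD103+ replicate 2 it went from -6.78 to -2.55 (adjusted p = 0.9). Of the genes that fell, Il1rl1, the receptor for interleukin-33, went from 9.91 to 13.8 CPM to 0.833 to 2.77 CPM and C3ar1, the receptor for complement C3a, from 9.8 to 15.9 CPM to 0.876 to 1.1 CPM. Tppp3 fell from 62.4 to 103 CPM to 2.92 to 4.2 CPM, and Krt8 from 7.36, 25.5 and 66.8 CPM to 0.609 to 0.779 CPM, with the spread among the LP libraries given above. Neither Il1rl1 nor Krt8 held its call on leaving out any 1 of 5 libraries, with adjusted p-values up to 0.0219 and 0.0128.

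Lists of genes by role were then set beside the 18.5% of all genes called in the interaction, 9.27% above and 9.2% below 0. The lists were chosen with earlier results of these data known, so their counts describe the members and are no test. Of 16 cDC1 genes, 13 were called, all below 0, and the median interaction was -3.46 against 0.01 for all genes. The median tissue effect was -2.89 in CD103+ and 0.85 in CD11b+ DCs. Besides the 5 genes that moved in opposite directions, 6 fell in CD103+ DCs alone, among them Clec9a, the receptor for dead cells, from 216 to 297 CPM to 34 to 47.7 CPM, Naaa from 2304 to 2594 CPM to 99.3 to 133 CPM, and Wdfy4, which cross-presentation requires, from 489 to 519 CPM to 27.2 to 40.2 CPM. Cd8a rose in CD11b+ DCs alone, from 3.44 to 7.79 CPM to 37.7 to 54.1 CPM, and was at 166 to 221 CPM in LP and 109 to 160 CPM in LN CD103+ DCs. T cells also carry Cd8a. Itgae fell by 5.24 in CD103+ and by 4.82 in CD11b+ DCs, with an interaction of -0.42 (SE 0.43, adjusted p = 0.48), and Batf3 was at 143 to 156 CPM in LP CD103+, 142 to 182 CPM in LN CD103+, 112 to 125 CPM in LP CD11b+ and 99 to 114 CPM in LN CD11b+ DCs. Without LP CD11b+ replicate 3 the interaction of Itgae passed the limits, at -1.08. That of Batf3, 0.2, turned to -0.16 on total counts. Cd36 lost its call on leaving out any 1 of 3 libraries, with adjusted p-values up to 0.0107.

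Of the 16 cDC2 genes, 3 were called above 0 and 3 below, with a median of 0.17. Irf4, the transcription factor of cDC2 that also drives DC movement, rose in CD103+ DCs alone, from 6.05, 5.29 and 5.22 CPM to 32, 23 and 24.9 CPM, and was at 58.5, 74.7 and 54.9 CPM in LP CD11b+ and 39.9, 36.2 and 46.1 CPM in LN CD11b+ DCs. The interaction was 2.89 (SE 0.23, adjusted p = 5.07e-08). Zeb2 rose from 0.409 to 1.63 CPM to 5.06 to 5.43 CPM and Sirpa from 4.41 to 4.74 CPM to 14.2 to 15.3 CPM in CD103+ DCs, both far below their levels of 59.7 to 79.1 and 515 to 832 CPM in LN CD11b+ DCs. The 3 genes below 0 were Ccr2, Clec12a and Notch2. The call of Ccr2 was lost on leaving out any 1 of 9 libraries (adjusted p up to 0.0274) and that of Notch2 without LP CD103+ replicate 1 or LN CD103+ replicate 3 (-0.97 to -0.95). On total counts Sirpa stood at 0.91.

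Both maturation lists moved further in CD103+ DCs. Of 17 tested genes for surface and secreted molecules, 10 were called above 0 and 1 below, and the median tissue effects were 3.09 in CD103+ and 1.72 in CD11b+ DCs. Of the 10, Ccl22 lost its call on leaving out any 1 of 5 libraries (adjusted p up to 0.0173). Il15ra, which presents interleukin-15, rose from 8.91, 7.36 and 6.36 CPM to 368, 345 and 439 CPM in CD103+ DCs and from 16.8, 8.97 and 13.5 CPM to 46.5, 75 and 58.9 CPM in CD11b+ DCs. Its partner Il15 rose from 21.2 to 24.8 CPM to 206 to 265 CPM and from 9.12 to 10.1 CPM to 28.1 to 41.9 CPM. Ccl5, a chemokine for T cells, rose by 9.0 and 5.62 on the log2 scale and Cd40, the receptor for T cell help, by 3.83 and 1.5. T cells also make Ccl5.

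The exception was Cd86, a costimulatory ligand of CD28, which fell in CD103+ DCs alone. It was at 512, 514 and 646 CPM in LP CD103+ and 154, 140 and 151 CPM in LN CD103+ DCs, and at 93.2, 86.1 and 105 CPM and 139, 111 and 142 CPM in LP and LN CD11b+ DCs, an interaction of -2.38 (SE 0.19, adjusted p = 6e-08). Ccl17, a chemokine for regulatory and helper T cells, fell in CD11b+ DCs alone, from 46.3 to 63.5 CPM to 11.9 to 23.1 CPM, and was at 42.8 to 68.6 and 57.7 to 67.1 CPM in CD103+ DCs. Tnfsf9, the ligand of 4-1BB, rose in CD103+ DCs alone, from 5.7 to 13.1 CPM to 64.6 to 76.1 CPM.

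Of 16 regulators of movement and signalling, 12 were called above 0 and none below, with median tissue effects of 5.7 and 2.36 and a median interaction of 2.16. Fscn1, which bundles actin in DC protrusions, rose from 58.9, 29.7 and 46.8 CPM to 8465, 6949 and 7514 CPM in CD103+ DCs and from 25.9, 21.9 and 32.9 CPM to 686, 819 and 790 CPM in CD11b+ DCs. Relb, a transcription factor of the alternative NF-kB pathway, rose from 72.7 to 93.8 CPM to 2031 to 2079 CPM and from 176 to 184 CPM to 748 to 1020 CPM. Stat4, which transmits signals of interleukin-12 and interferon, rose past the limits in CD103+ DCs alone, from 2 to 3.96 CPM to 137 to 169 CPM. In CD11b+ DCs it also rose, from 21 to 31.3 CPM to 37.8 to 50 CPM, short of the limits. Its interaction of 5.03 was the largest of the list. Cacnb3 lost its call on leaving out any 1 of 10 libraries.

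Genes of MHC class II presentation were lowest in LN CD103+ DCs. Of 12 genes, 10 were called, all below 0, with a median interaction of -2.1 and median tissue effects of -2.43 in CD103+ and -0.53 in CD11b+ DCs. Ciita, the master regulator of MHC class II transcription, fell in CD103+ DCs from 768, 864 and 812 CPM to 61.2, 39.3 and 38.4 CPM and was at 626, 695 and 596 CPM in LP CD11b+ and 503, 366 and 498 CPM in LN CD11b+ DCs. The interaction was -3.65 (SE 0.25, adjusted p = 8.69e-09), and all 3 LN CD103+ libraries lay below every other library. March1, the ligase that removes MHC class II from the surface, fell from 207 to 273 CPM to 6.96 to 11.8 CPM in CD103+ DCs and from 136 to 155 CPM to 49.9 to 83.6 CPM in CD11b+ DCs.

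The chains of the class II molecules and their loading factors fell by unlike amounts. H2-DMb1, a chain of the peptide exchanger H2-M, fell from 1492 to 1620 CPM to 71.6 to 75.2 CPM in CD103+ DCs, and H2-Ob, a chain of its inhibitor H2-O, from 448 to 470 CPM to 38.8 to 49.3 CPM. H2-Ab1 was at 27200 to 28440 CPM in LP and 3517 to 3622 CPM in LN CD103+ DCs, and its partner H2-Aa fell from 11510 to 12150 CPM to 3310 to 3595 CPM. In CD11b+ DCs H2-Ab1 was at 23550 to 25950 and 12910 to 16800 CPM and H2-Aa at 12630 to 13780 and 8054 to 10030 CPM in LP and LN, neither past the fold limit. Cd74, the invariant chain, had an interaction of -0.7 (SE 0.16) and did not pass the limit on size, nor did Rfx5 (-0.61).

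Promoters of the class II genes share a short element, the Y box, to which the factor NF-Y binds beside the complex that recruits CIITA. RefSeq promoters (GRCm38.p6, 300 bases each, of which 250 lie before the start) were matched by symbol for 8 of the 12 genes. The letters TGATTGG, searched on both strands, were found in 7 of the 9 promoters listed for these 8 genes (77.8%) and in 7.82% of all 32851 promoters. They were also found in 6 of 12 promoters (50%) of the cholesterol list described further on, which was called above 0, so the letters are not particular to genes below 0. The 6 genes with a match on the coding strand all lie on chromosome 17. They are shown because they fell together in LN CD103+ DCs, each with 60 bases before the match and 13 after it, 5' to 3', and the capitals mark the match.
H2-Aa: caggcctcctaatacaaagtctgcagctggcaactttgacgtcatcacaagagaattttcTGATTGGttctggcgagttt
H2-Eb1: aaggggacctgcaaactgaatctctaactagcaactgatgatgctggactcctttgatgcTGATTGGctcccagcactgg
H2-DMb1: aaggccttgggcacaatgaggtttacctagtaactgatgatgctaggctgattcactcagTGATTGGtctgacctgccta
H2-DMb2: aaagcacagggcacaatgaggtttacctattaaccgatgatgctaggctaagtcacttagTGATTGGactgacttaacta
H2-Oa: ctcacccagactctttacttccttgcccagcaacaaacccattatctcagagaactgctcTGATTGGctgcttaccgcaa
H2-Ob: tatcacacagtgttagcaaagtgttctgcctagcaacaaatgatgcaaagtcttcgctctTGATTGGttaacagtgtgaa
The stretches lie at chr17:34287854-34287933 (minus strand) for H2-Aa, chr17:34305746-34305825 for H2-Eb1, chr17:34153068-34153147 for H2-DMb1, chr17:34145097-34145176 for H2-DMb2, chr17:34092274-34092353 for H2-Oa and chr17:34238786-34238865 for H2-Ob, the last 5 on the plus strand. The match began 50, 61, 63, 92, 45 and 59 bases before the annotated start, in the same order. Rfx5 held it on the other strand, and the 2 promoters listed for H2-DMa did not hold these letters. A match describes the sequence and is no measurement of binding.

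Lysosomal genes moved the other way. Of 12 proteases, inhibitors and membrane proteins, 10 were called above 0 and none below, with a median interaction of 1.85 and median tissue effects of 1.68 in CD103+ and -0.12 in CD11b+ DCs. Lgmn, the asparagine-specific protease legumain, was at 25.2, 25.1 and 25.1 CPM in LP CD103+ and 655, 704 and 716 CPM in LN CD103+ DCs. In CD11b+ DCs it was at 127, 98.4 and 124 CPM and 115, 120 and 133 CPM in LP and LN, so the interaction of 4.71 (SE 0.14, adjusted p = 1.27e-12) came from CD103+ DCs. Lamp1, a main protein of the lysosomal membrane, rose from 170 to 204 CPM to 2474 to 2786 CPM in CD103+ DCs and was at 526 to 827 and 675 to 881 CPM in CD11b+ DCs. The cathepsin Ctsz rose from 417 to 475 CPM to 2659 to 2980 CPM and Ifi30, a reductase that unfolds antigen, from 207 to 216 CPM to 916 to 1126 CPM in CD103+ DCs alone. Ctsd rose in both subsets. Cst3, the cathepsin inhibitor cystatin C, and Ctsl were not called. For Ctsh, Ctsb, Ifi30 and Ctsz the LN CD103+ level came to or above that of the CD11b+ groups, from a lower level in the LP.

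**Figure D4:**
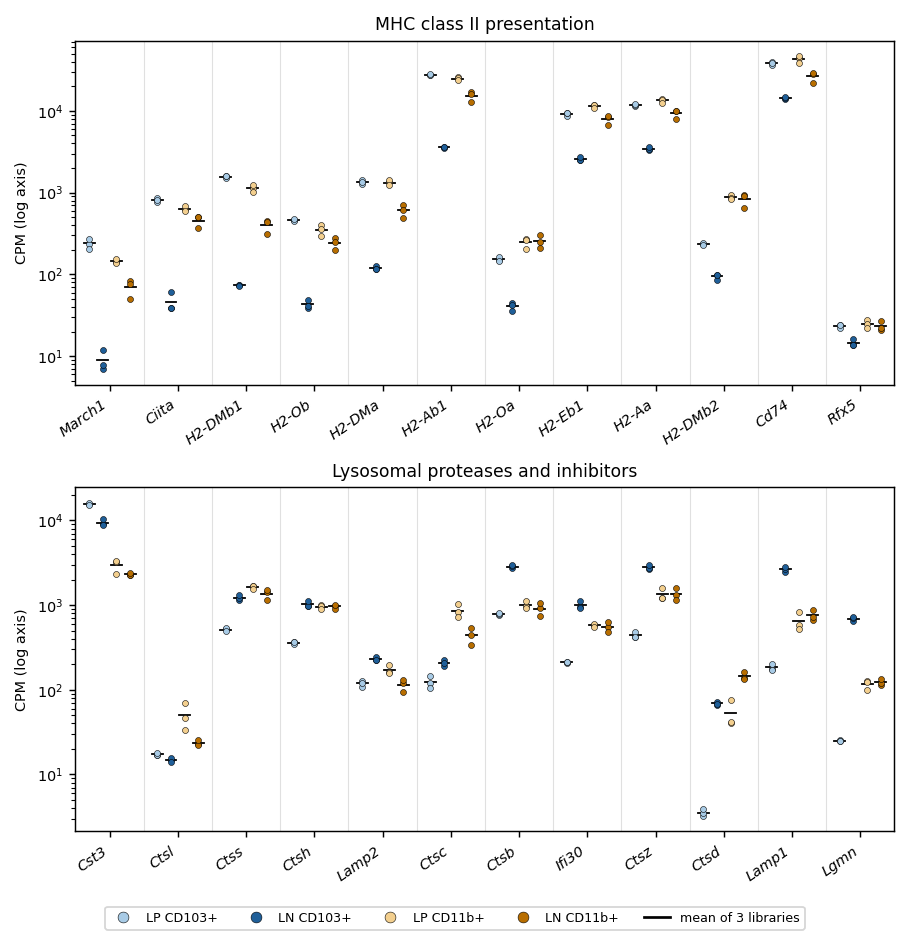
Level (CPM, log axis) in each of the 12 libraries for the 12 MHC class II genes (upper) and the 12 lysosomal genes (lower), with the mean of 3 libraries as a bar and genes ordered by their interaction. In the upper panel the dark blue points (LN CD103+) lie lowest in each gene, and in the lower panel they lie above the light blue (LP CD103+) in 10 of the 12 genes, all but Cst3 and Ctsl.

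In MHC class I presentation 5 of 14 genes were called above 0 and none below. B2m, the light chain shared by class I molecules, rose past the limits in CD103+ DCs alone, from 2132 to 2427 CPM to 14480 to 18020 CPM. In CD11b+ DCs it also rose, from 2859 to 3262 CPM to 5346 to 6324 CPM, short of the limits. H2-K1 rose in both subsets, by 2.99 and 1.15 on the log2 scale, and Tapbp, which loads peptide, in CD103+ DCs alone, from 1005 to 1097 CPM to 3596 to 3904 CPM. The other 2 were H2-D1 and Psmb10, a subunit of the immunoproteasome, the last of which fell to 0.97 on total counts.

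Among 18 cytokine receptor genes, 5 were called above 0 and 1 below. Il2rg, the chain shared by receptors for interleukins 2, 7, 15 and 21, was at 20.6, 18.9 and 19.5 CPM in LP CD103+ and 333, 337 and 343 CPM in LN CD103+ DCs, against 260, 240 and 236 CPM and 372, 369 and 425 CPM in LP and LN CD11b+ DCs. The interaction was 3.44 (SE 0.11, adjusted p = 3.22e-12), and the difference between the subsets went from -3.64 in the LP to -0.2 in the LN. Il21r rose in both subsets, from 13.3 to 16.6 CPM to 937 to 1101 CPM in CD103+ and from 48.5 to 73.1 CPM to 250 to 318 CPM in CD11b+ DCs. Csf2rb, the signalling chain for GM-CSF, rose in CD103+ DCs alone, from 126 to 158 CPM to 1095 to 1221 CPM, and so did Il4ra, from 190 to 208 CPM to 948 to 1204 CPM. Ifngr1, the binding chain for interferon-gamma, was the gene below 0. It fell from 1304, 1205 and 1162 CPM to 154, 158 and 151 CPM in CD103+ DCs and was at 671, 641 and 651 CPM and 708, 622 and 716 CPM in CD11b+ DCs. Il7r, also a T cell gene, rose in both subsets and further in CD103+ DCs.

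Of 11 chemokine and positioning receptors tested, 4 were called above 0 and 2 below. Besides Cxcr3 and Ccr1, Ccr6, the receptor for CCL20, rose from 0.323 to 0.637 CPM to 11.9 to 17.4 CPM in CD103+ DCs and from 8.02 to 18.1 CPM to 109 to 126 CPM in CD11b+ DCs. Cxcr4, the receptor for CXCL12, rose in CD103+ DCs alone, from 1.29 to 2.69 CPM to 12.2 to 15.6 CPM, and Ackr3, a scavenger of the same chemokine, from 0 to 0.107 CPM to 1.16 to 1.71 CPM. Gpr183, which guides cells along oxysterols, had an interaction of -1.1 with neither tissue effect past the limits.

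In the list of Toll-like receptors and their adaptors, which left out Tlr3 and Tlr11, 1 of 14 genes was called above 0 and 2 below. Tlr12, a sensor of profilin, fell from 808 to 886 CPM to 54.5 to 69.2 CPM in CD103+ DCs and from 31.3 to 51.8 CPM to 15.2 to 19.2 CPM in CD11b+ DCs. Unc93b1, the chaperone of the endosomal receptors, fell in CD103+ DCs alone, from 1846 to 2023 CPM to 550 to 615 CPM. Tlr2, which senses bacterial lipoproteins, rose in CD103+ DCs alone, from 3.47 to 5.66 CPM to 16.4 to 23 CPM. Its interaction of 1.22 was close to the limit and no longer above it without LN CD11b+ replicate 2 or on total counts (0.87).

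Interferon-stimulated genes rose in both subsets, with 12 of 19 higher in LN CD103+ and 11 of 19 in LN CD11b+ DCs. The tissue effect differed for 11, of which 8 lay above 0 and 3 below. Ifit1, an RNA-binding antiviral protein, rose from 1.03 to 2.11 CPM to 31.7 to 50.8 CPM in CD103+ DCs and from 14.8 to 23.7 CPM to 60.5 to 78.8 CPM in CD11b+ DCs. Usp18, which limits interferon signalling, rose from 57.9 to 61.3 CPM to 425 to 516 CPM and from 70.2 to 84.4 CPM to 171 to 223 CPM. The 3 below 0 were the ligands of CXCR3, Cxcl9 and Cxcl10, and Irf7. Cxcl9 fell in CD103+ DCs alone, from 118 to 139 CPM to 42.3 to 51.8 CPM, while Cxcl10 rose in CD11b+ DCs alone, from 25 to 28.1 CPM to 49 to 58.6 CPM. Single libraries decided 3 of the 11 calls. Isg15 was lost on leaving out any 1 of 5 libraries, Mx1 any 1 of 2, and Irf7 without LP CD11b+ replicate 3 (-0.95). Isg15 and Mx1 were also lost on total counts.

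In the retinoic acid and TGF-beta list 2 of 14 genes were called above 0 and 3 below. Aldh1a2, the retinal dehydrogenase by which gut DCs make retinoic acid, was at 256, 198 and 274 CPM in LP CD103+ and 2375, 2319 and 1955 CPM in LN CD103+ DCs. In CD11b+ DCs it was at 96.9, 106 and 101 CPM in the LP and 65.7, 120 and 131 CPM in the LN, an interaction of 3.14 (SE 0.27, adjusted p = 1.47e-07). Rara and Rxra, which encode receptors for retinoic acid and its partner, fell in CD103+ DCs alone, from 51.8 to 79.4 CPM to 16.2 to 18.3 CPM and from 19.4 to 22.8 CPM to 2.81 to 5.48 CPM. Tgfb1 fell from 136 to 165 CPM to 31 to 45.1 CPM in CD103+ DCs alone. Without LN CD103+ replicate 3 its interaction was -0.97, short of the size limit. Dhrs3, a retinal reductase and the other gene above 0, was at 0.96 without LP CD103+ replicate 3 or LN CD11b+ replicate 1.

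Genes of DNA replication and mitosis fell in CD103+ DCs and did not pass the limits in CD11b+ DCs. Of 20 genes, 18 were lower in LN CD103+ and none changed in CD11b+ DCs past the limits, and the interaction was called below 0 for 12 and above 0 for none, with a median of -1.18. Mki67, a marker of cycling cells, was at 73.2, 57.1 and 62.9 CPM in LP CD103+ and 20.4, 19.3 and 19 CPM in LN CD103+ DCs, and at 42.5, 53.3 and 49 CPM and 55.9, 41.6 and 48.8 CPM in LP and LN CD11b+ DCs. The interaction was -1.73 (SE 0.19, adjusted p = 1.53e-06). The 8 genes not called included the replicative helicase genes Mcm2, Mcm3, Mcm5 and Mcm6, with interactions of -0.9, -0.64, -0.58 and -0.45. Bub1, a spindle checkpoint kinase, lost its call on leaving out any 1 of 7 libraries. The summed T and natural killer cell genes were higher in the LN groups, as given above, and their part in these levels was not tested.

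For cholesterol synthesis and uptake 11 of 16 genes were called above 0 and none below, and the median tissue effects had opposite signs, 0.63 in CD103+ and -0.75 in CD11b+ DCs. Idi1, an isomerase of the mevalonate pathway, rose from 31.7, 22.9 and 21.4 CPM to 161, 154 and 140 CPM in CD103+ DCs and was at 24.4, 19.7 and 21.7 CPM and 14.2, 19.2 and 18 CPM in CD11b+ DCs. Sqle, squalene epoxidase, fell in CD11b+ DCs alone, from 103 to 120 CPM to 40.4 to 49.8 CPM. No gene of the list passed the limits in opposite directions. On total counts the median interaction of the list was 1.25 in place of 1.61.

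The glycolysis list had 2 of 14 genes called above 0 and 2 below. Hk2 and Ldha, which encode a hexokinase and lactate dehydrogenase A, fell in both subsets and further in CD103+ DCs, Ldha from 1696 to 1850 CPM to 258 to 341 CPM and from 1242 to 1356 CPM to 569 to 643 CPM. Aldoa rose in CD103+ DCs alone, from 573 to 608 CPM to 1235 to 1312 CPM, and Gapdh had an interaction of 1.27 with neither tissue effect past the limits. On total counts Gapdh stood at 0.91.

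**Figure D5:**
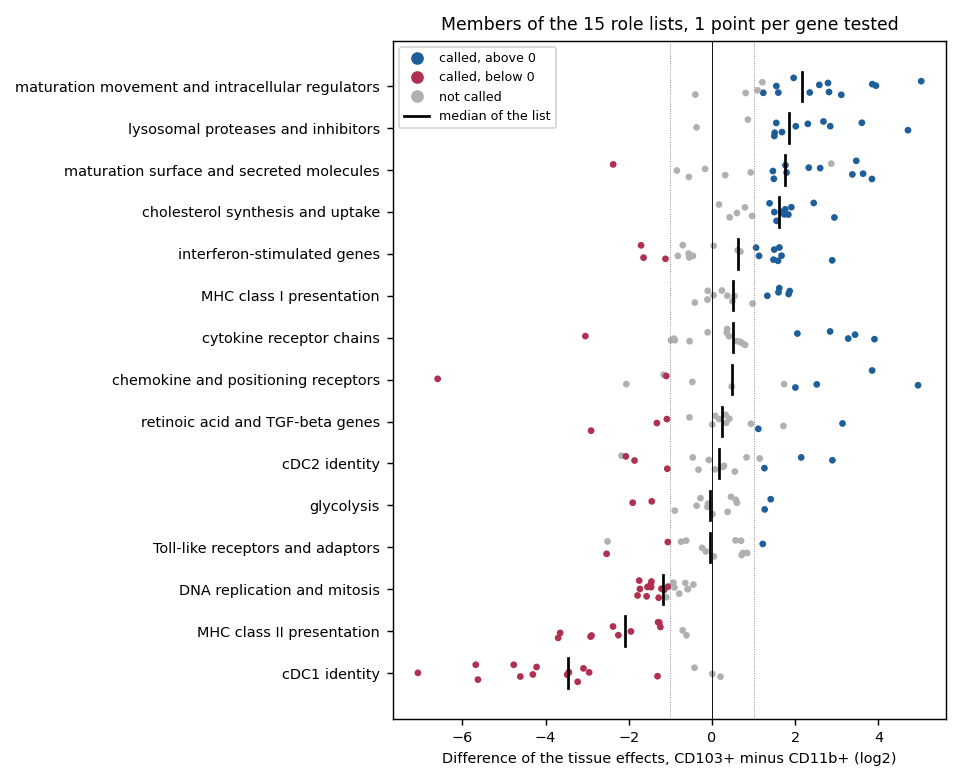
Difference of the tissue effects (log2, CD103+ minus CD11b+) for each tested member of the 15 role lists, with the list median as a black bar and the dotted lines at the limits of -1 and 1. The cDC1 and MHC class II lists lie furthest below 0, with medians of -3.46 and -2.1, and the list of maturation movement and intracellular regulators furthest above, with 2.16.

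The double-positive DCs, whose 6 libraries the interaction does not use, gave a tissue effect of their own. Sex and tissue largely coincide in these libraries too. All LP libraries expressed Ddx3y with almost no Xist, LN replicates 1 and 2 Xist with almost no Ddx3y, and LN replicate 3 both. Their summed T cell genes were at 7.74 to 20.4 CPM in the LP and 341 to 560 CPM in the LN. Over all genes tested 18.6% rose and 13.6% fell in LN double-positive DCs. Of the 319 genes that rose in both subsets and further in CD103+ DCs, 307 also rose in double-positive DCs, and of the 159 that fell in both and further in CD103+ DCs 151 fell. Where CD103+ DCs moved alone, 607 of 1008 rising genes rose and 652 of 1113 falling genes fell in double-positive DCs. Where CD11b+ DCs moved alone, 72 of 109 rising genes rose and 45 of 92 falling genes fell. All 17 genes that rose in both and further in CD11b+ DCs also rose in double-positive DCs. All 5 that fell in both and further in CD11b+ DCs fell there too. Of the 89 genes of opposite direction, 46 passed the limits in neither direction in double-positive DCs. Of the 38 that rose in CD103+ DCs, 8 rose, 9 fell and 21 did not pass. Of the 51 of the reverse group 22 rose, as in CD11b+ DCs, 4 fell, as in CD103+ DCs, and 25 did not pass. The 18.6% and 13.6% of all genes given above belong beside these counts.

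Single genes showed both courses. Irf8 was at 77.4 to 92.5 CPM in LP and 618 to 750 CPM in LN double-positive DCs, a rise of 3.04 against 1.43 in CD11b+ and -1.53 in CD103+ DCs. Cxcr3 rose by 3.43, Xcr1 by 1.55 and Cadm1 by 2.71 in double-positive DCs, each on the side of CD11b+ DCs. Cd82, a tetraspanin, fell by 1.32 and stood on the side of CD103+ DCs (-2.26) rather than of CD11b+ DCs (1.18). Of the 38 genes Bst1 rose by 3.12, as in CD103+ DCs, and Clec7a, the beta-glucan receptor Dectin-1, fell by 2.81, as in CD11b+ DCs. Cd82 and Clec7a were chosen for mention after their values were seen.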

How the data were processed

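RNA-seq libraries of sorted DCs were prepared with a Smart-seq v4 kit, which does not mark strand, and sequenced in pairs on a HiSeq4000, per the labels. The submitters' processing notes name FastQC 0.11.7, STAR 2.6 and GRCm38. The counter, its annotation and the treatment of reads that match several genes are not given in the sources used here. Raw read counts per Ensembl gene were deposited by the authors, and every column of the table was mapped to a sample by its label. Symbols and biotypes came from GENCODE annotation for GRCm38, which matched 54165 of 54232 gene IDs. Each library's total is its depth as deposited, and precision rests on 3 libraries in each group.

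Groups were taken from the labels. Counts were filtered with edgeR's filterByExpr over the 6 groups, scaled by TMM, which assumes that most genes do not change, and fitted with edgeR 4.0.16 in R 4.3.3 (glmQLFit and glmQLFTest, group means, all 18 libraries), after the test had been checked on simulated data. Contrasts were the tissue effect in each subset, the interaction, the subset difference in each tissue and the tissue effect in double-positive DCs. A gene was called at a Benjamini-Hochberg adjusted p under 0.01 over all genes tested and an absolute log2 difference above 1. Called interactions were classed by which tissue effects were called and with which sign. SE beside a log2 difference is the estimate divided by the square root of its quasi-likelihood F statistic.

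Named genes were the called protein-coding genes with the largest interaction, 8 in each direction of the opposite class and 4 in each part of the others, with at least 10 CPM in the highest group and no overlap of LP and LN libraries in the tissue effects called. To these came members of 15 role lists and of marker lists for other cells. The members and lists were chosen with earlier results of these data known. Some list members are counted but not reported here by name.

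Alternatives were DESeq2 1.42.0 (its size factors in edgeR, and its own test), total counts without TMM, no filter, a filter of 100 counts in 3 libraries, the 12 libraries alone, other limits, leaving out each library, and replicate blocks. Leaving out genes of the X and Y chromosomes was added after seeing the data. Groups share replicate numbers. For the subsets of the LP, deviations from the group means correlated at 0.136 to 0.196 between same numbers and -0.123 to -0.044 between unlike numbers. For those of the LN the values were 0.029 to 0.063 and -0.045 to 0.009. Across tissues same numbers gave -0.09 to 0.05. The numbers thus pair the LP libraries, the LN libraries only weakly, and show no pairing across tissues. Replicates differed by more than counting noise in every group, so each was counted as 1 sample.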

Additional observations from a re-analysis of the deposited data

Results flagged for a closer look

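The 3154 called genes are themselves a difference between groups under 1 contrast, tested by the interaction term (edgeR's quasi-likelihood test, adjusted p under 0.01 and more than 1 on the log2 scale). By direction, 38 genes rose in CD103+ and fell in CD11b+ DCs and 51 did the reverse. Among genes that rose in both subsets CD103+ DCs moved further in 319 and CD11b+ DCs in 17, and among those that fell in both CD103+ DCs moved further in 159 and CD11b+ DCs in 5. CD103+ DCs alone rose in 1008 genes and fell in 1113, CD11b+ DCs alone rose in 109 and fell in 92, and 243 passed in neither subset. Groups of 3 libraries are too small for the test of single outlying samples, which was not run.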

How the results depend on the processing

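Other settings kept the count of 3154 genes within 1.5 times. It was 3173 with DESeq2 size factors (3044 shared with the 3154), 3661 on total counts (2641 shared), 3167 without a filter (2989 shared), 2912 with the stricter filter (2831 shared), 2982 with the 12 libraries alone (2890 shared) and 3544 with DESeq2's own test (3065 shared). The opposite class held 90, 110, 95, 82, 87 and 109 genes in that order, of which 84, 80, 84, 79, 78 and 86 were among the 89. With an adjusted p under 0.05 it held 144 genes, 62 of which rose in CD103+ DCs and 82 fell, and with no limit on size 255, of which 146 rose and 109 fell. The genes of CD11b+ DCs alone went from 201 to 315 and 306 at the same settings. With no limit on size 1326 genes moved the same way by different amounts, and 4571 genes had a tissue effect in CD11b+ DCs, 8467 in double-positive DCs, and a subset difference 4433 in the LP and 7329 in the LN. Among parts of the classes, total counts gave 81 in the part of the opposite class that fell in CD103+ DCs, and DESeq2's test 39 genes in which CD11b+ DCs moved further the same way, which were 52 at an adjusted p under 0.05 and 56 with no limit on size.

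The replicate block by number called 3151 genes, 89 of them in opposite directions, and the block within tissue 3168 and 89. The block moved no count by over 1.5 times and, of the 248 genes followed singly, ended the call of Fabp2 by number, and of Il1rl1 and Ly6d within tissue. With X-linked and Y-linked genes left out, an alternative chosen after seeing the data, 3058 genes were called and 83 were opposite. Of 537 X-linked genes tested, 17.9% were called.

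Leaving out 1 library gave 2915 to 3122 called genes, 75 to 86 opposite, 426 to 487 the same way and 2153 to 2358 in 1 subset. The tissue effect then covered 5520 to 6034 genes in CD103+, 2114 to 2623 in CD11b+ and 5395 to 5515 in double-positive DCs, and the subset difference 2374 to 2707 in the LP and 3957 to 4455 in the LN. Without LN CD11b+ replicate 3, the library with both Xist and Ddx3y, 2972 were called and 76 were opposite (71 of the 89). Without LP CD11b+ replicate 3, which had the highest epithelial sum, the counts were 2956 and 79 (66 of the 89). Of 4952 values of single genes 110 lost their call, 2 gained one and 2 changed sign, Batf3 to -0.16 on total counts and Itgam to -0.5 without LN CD103+ replicate 2. Neither was called, and leaving out LN CD103+ replicate 1 gave 0.92 for Itgam, the other end of its range. On total counts Cd74 gained a call (-1.06). On total counts the list medians moved down with that of all genes, to -3.82 for cDC1, -2.46 for MHC class II, 1.5 for lysosomal and 0.26 for interferon-stimulated genes, and to -0.4 for glycolysis. Depth limits genes at a few reads in a group, whose log2 differences depend on a prior count.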

Other observations

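Of the 170 genes whose subset order was turned between the tissues, 74 were higher in CD103+ DCs in the LP and in CD11b+ DCs in the LN, and 96 the reverse. The genes that follow were chosen after their values were seen. Cd63, a tetraspanin of late endosomes, was at 9.25 to 18.1 CPM in LP CD103+ and 1466 to 1932 CPM in LN CD103+ DCs, and at 24.2 to 117 and 202 to 321 CPM in LP and LN CD11b+ DCs. It rose in both subsets and further in CD103+ DCs, with no overlap between the subsets in either tissue. Gbp4, a GTPase induced by interferon, went from 3.5 to 4.86 CPM to 280 to 352 CPM in CD103+ and from 42.2 to 46.1 CPM to 67.7 to 109 CPM in CD11b+ DCs. Pygl, the glycogen phosphorylase of liver, rose from 12.6 to 19.2 CPM to 325 to 368 CPM in CD103+ DCs and was at 145 to 228 and 113 to 140 CPM in CD11b+ DCs. Pparg, a nuclear receptor for lipids, fell from 14.5 to 28.2 CPM to 0.886 to 0.964 CPM in CD103+ DCs and was at 1.4 to 3.99 and 2.11 to 5.36 CPM in CD11b+ DCs.

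Calls in the marker lists of other cells are given beside the 9.27% of all genes called above 0 and 9.2% below. A single call in lists this short carries little weight. Of the 12 T cell genes 3 were called above 0 and none below, and of the 8 B cell genes tested none above and 1 below. Of the 10 macrophage genes 2 were called above and 3 below, and of the 11 epithelial genes 5 above and 1 below. Plasma cell genes summed to 1870 to 2240 CPM in LP CD11b+ and 1550 to 1720 CPM in LN CD11b+ DCs. Their sums were 564 to 805 CPM in LP CD103+ and 358 to 481 CPM in LN CD103+ DCs, and of the 7 genes none was called above and 1 below. Genes of plasmacytoid DCs summed to 153 to 279 CPM over the 4 groups, and of the 6 tested 2 were called above and none below. Of the 6 genes of the sort and the genotype none was called above and 3 below.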
